A study of Mus musculus with 2 samples.

Results

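The collagen genes are the 44 features whose symbol is Col, a number, a and a number (Col1a1 to Col28a1), of 31253 features measured in dissociated newborn mouse tooth germ. All matches were kept, and none was chosen for its level. Collagens are secreted or membrane proteins of 3 chains wound into a triple helix. Fibrillar collagens form the load-bearing fibrils of dentin, bone and ligament, and the predentin laid down by odontoblasts is chiefly type I fibrils on which mineral is deposited. Type IV chains build the sheet-like network of basement membranes, type VI chains a beaded filament close to cells, and fibril-associated collagens sit on fibril surfaces. The members fell by structure into 11 fibrillar, 9 fibril-associated, 6 basement membrane network, 6 beaded filament, 4 transmembrane, 3 short-chain network, 2 multiplexin and 1 anchoring fibril genes, and 2 others (Col26a1 and Col28a1).

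Cells came from mandibular first molar germs of newborn C57BL/6 mice and were captured on the BD Rhapsody single-cell system. The control group was Edarfl/fl, in which both Edar alleles carry loxP sites and no Cre is present. The deletion group was K14cre;Edarfl/fl, the same floxed alleles with a Cre driven by the keratin 14 promoter, which is active in epithelium, so cells of the mesenchyme are not the direct target of the Cre. Each group was 1 library, the number of germs pooled is not given in the sources used here, and no difference between the libraries had a replicate check.

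After filters, 13255 control and 15244 deletion cells were kept, with medians of 4444 and 3329 unique molecular identifiers (UMIs, each marking 1 captured transcript molecule). Edar itself stood at 34.6 CPM (UMIs of a gene per 1000000 UMIs of a class; 360 UMIs) in control and 21.1 CPM (145 UMIs) in deletion epithelium-like cells; whether the counted stretch lies in the deleted part is not known here. Cells with Xist and no Y-linked UMI were 20.8% of the control and 34.9% of the deletion library, so the libraries differed in sex as well as genotype. The libraries shared 4 barcodes. Marker genes of the tissue were present. The dentin gene Dspp reached 4671 and 2987 CPM in odontoblast-like cells, and the enamel gene Amelx 39657 and 56840 CPM in ameloblast-like cells. Cells were clustered without any collagen gene, and classes were scored on non-collagen markers. The leading genes of a cluster also entered its naming, and in some clusters these included collagen genes. Examples were Col11a2 in odontoblast-like cells and Col9a2 in a papilla-like sub-cluster. The naming was thus not wholly free of collagen genes, and whether they changed any name was not tested. Levels are in CPM, control first and deletion second. They are not divided by transcript length, since a UMI stands for 1 captured molecule, and capture may differ between genes. All intervals are at 95% and cover counting error only.

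Collagen genes took 5.43% of all UMIs in the control library and 3.83% in the deletion library. Odontoblast-like cells held the largest share of any named class, 15.9% of control UMIs (interval 15.8 to 15.9) and 12.9% of deletion UMIs (12.9 to 12.9). Fibroblast-like cells, led by Mfap5, Eln and Dpt, followed with 8.80% and 7.24%. Osteoblast-like cells held 6.19% and 5.47%, and follicle-like cells, which give rise to ligament and cementum, 5.48% and 5.80%. The order of these 2 classes turned between the libraries. In cells thinned at random to 1900 UMIs the osteoblast-like share was the higher in both, 6.17% and 5.87% against 5.37% and 5.79%. As a mean over cells the order still turned, at 6.03% and 5.61% against 5.32% and 5.74%. The order also turned with a stricter cell filter, with collagen genes allowed in the clustering and with finer sub-clustering, so it is not settled. Papilla-like cells, the pulp precursors next to the odontoblasts, held 2.86% and 2.62%, and mural-like cells of the vessel wall 2.54% and 2.23%. With the same thinning the papilla-like shares were 2.64% and 2.53% and the mural-like 2.64% and 2.34%, so the order of these classes did not hold. Endothelium-like cells held 1.11% and 0.884%, and epithelium-like cells 0.424% and 0.432%. The epithelium-like class included 35 control and 53 deletion cells led by Bglap, Plac8 and Col3a1, which held 2.55% and 1.75%.

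The border between papilla-like and odontoblast-like cells depends on the clustering. The sub-cluster led by Plac8, Fgf10 and Panx3, 1346 of 2582 control and 1202 of 3617 deletion papilla-like cells, scored 0.66 for the papilla list, a lead of 0.01 over the next. With sub-clustering at resolution 1.0 in place of 0.6, 1022 control and 901 deletion papilla-like cells were named odontoblast-like. The odontoblast-like share was then 12.5% and 9.26%, and the papilla-like share 1.93% and 2.12%, so the papilla-like order of the libraries turned. With collagen genes allowed in the clustering the papilla-like share was 1.99% and 2.15%.

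Macrophage-like cells showed 0.116% and 0.119%, and neutrophil-like cells 0.282% and 0.235%. These values give the level at which collagen UMIs were found in immune cells, used here as a background. Whether these UMIs came from the immune cells themselves or from RNA of other cells was not tested. Col1a1 alone was 682 and 675 CPM in macrophage-like and 1932 and 1305 CPM in neutrophil-like cells, and Col1a2 220 and 187 CPM and 583 and 347 CPM. Of the 35 members described below with their values, 33 were under 150 CPM in both immune classes in both libraries, and the exceptions were Col1a1 and Col1a2. Col1a1 in epithelium-like cells, at 1219 and 1295 CPM, and in endothelium-like cells, at 1345 and 684 CPM, lay between these immune values, so it cannot be told apart from that background. Col1a2 in epithelium-like cells, at 942 and 894 CPM, lay above them, and in endothelium-like cells, at 401 and 247 CPM, it did not.

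**Figure D1:**
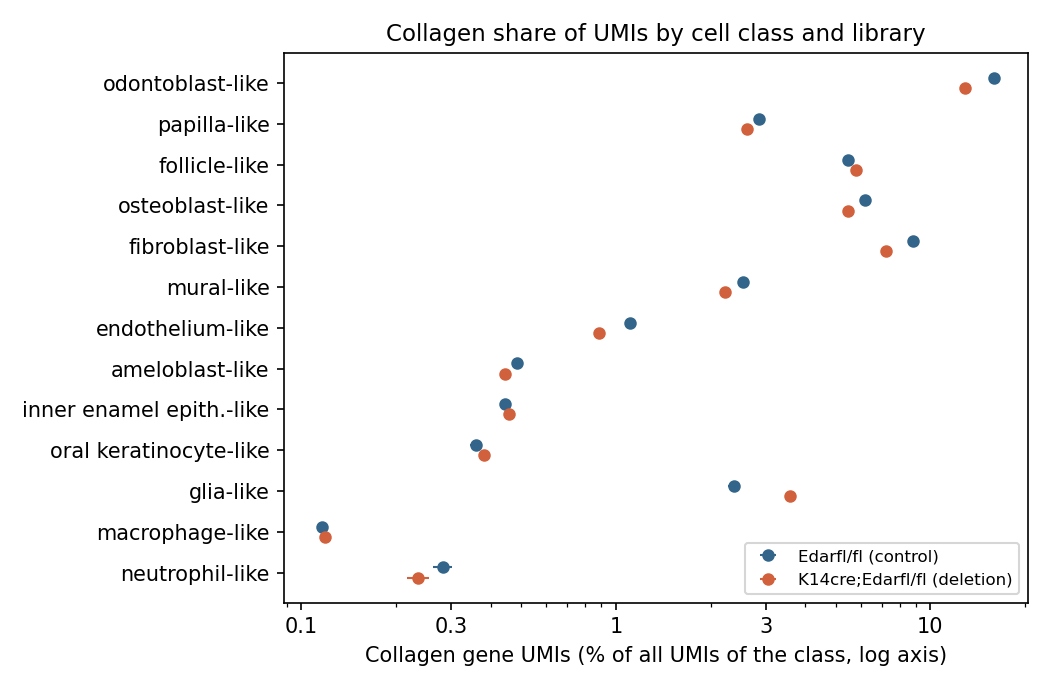
Share of each class's UMIs that fell on collagen genes (horizontal log axis, percent), for the control (blue) and deletion (orange) library, with exact binomial intervals that are mostly narrower than the points. Odontoblast-like cells sit at 15.9% and 12.9% and macrophage-like cells at 0.116% and 0.119%.

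Sub-clusters inside the follicle-like and papilla-like classes differed in collagen share by more than the libraries did. Among follicle-like cells, the sub-cluster led by Pappa2, Tnn and Postn held 10.6% and 8.89%, and made up 515 of 1824 control and 1448 of 3331 deletion cells. Another follicle-like sub-cluster, led by Moxd1 and Igfbp5, held 3.49% and 3.43%, and the cycling one 2.80% and 2.83%. Among papilla-like cells, the sub-cluster led by Plac8, Fgf10 and Panx3 held 3.39% and 3.38%, against 1.79% and 1.97% in the one led by Grik1 and Kirrel3. The cycling mesenchymal cells, which stayed unnamed, held 1.68% and 1.43%.

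The mix of collagens also differed between classes. Fibrillar collagens made up 99.6% and 99.5% of the collagen UMIs of odontoblast-like cells, 90.1% and 90.5% in osteoblast-like, 90.7% and 87.5% in papilla-like and 85.4% and 86.6% in follicle-like cells. Beaded filament type VI genes were the next group in follicle-like cells, with 9.35% and 8.67%, and 0.208% and 0.261% in odontoblast-like cells. In endothelium-like cells basement membrane genes led with 65.0% and 66.0%, and the multiplexins Col15a1 and Col18a1, collagens of the basement membrane zone, added 13.3% and 14.9%. Mural-like cells were split between fibrillar genes (44.7% and 43.3%) and basement membrane genes (41.3% and 41.9%). Epithelium-like cells gave 71.5% and 71.6% fibrillar, 9.01% and 8.09% fibril-associated and 6.66% and 6.32% basement membrane genes. Of their 44071 and 29637 collagen UMIs, 6707 and 5223 came from the sub-cluster led by Bglap, Plac8 and Col3a1. That sub-cluster also held 4271 of the 12677 control and 2961 of the 8885 deletion Col1a1 UMIs. The make-up of the class without it is not given. In oral keratinocyte-like cells no group reached 50%. Their fibrillar share was 45.3% and 47.8%, transmembrane collagens were 9.39% and 9.58%, and anchoring fibril Col7a1 was 6.54% and 6.37%.

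**Figure D2:**
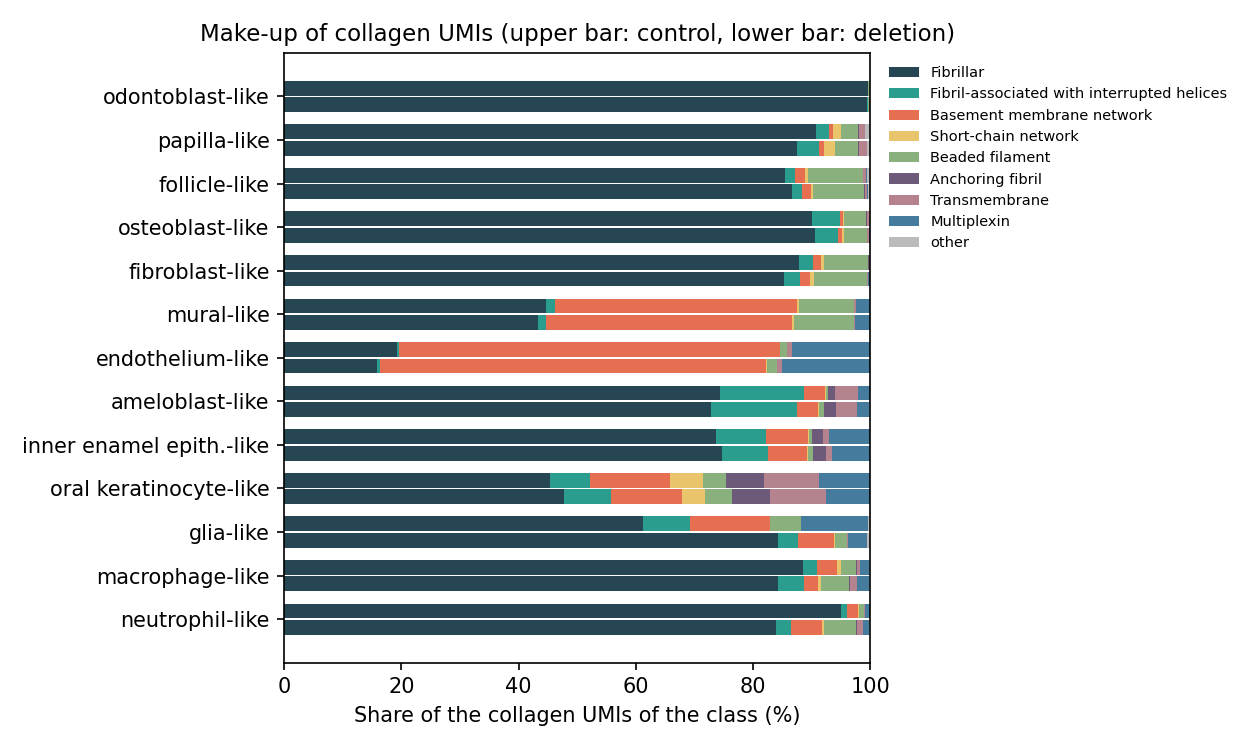
Share of the collagen UMIs of each class (horizontal axis, percent) by structural group, with the control as the upper and the deletion library as the lower bar. Fibrillar genes fill 99.6% and 99.5% of the odontoblast-like bars, while basement membrane genes fill 65.0% and 66.0% of the endothelium-like bars.

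Of the 44 members, 35 reached 50 CPM in both libraries in at least 1 of the 12 main classes, which count the epithelium as 1 class. For 32 of them the highest class was the same in both libraries, and for 30 the lower of its 2 library values lay above the higher value of the class next in order. The same counts were not made over all genes, so they describe the members and show no trait particular to collagens. They hold for the main clustering, and some of the orders below changed with finer sub-clustering. In all, 10 peaked in fibroblast-like cells, 6 in odontoblast-like, 4 in epithelium-like, 4 in glia-like, 3 each in papilla-like, osteoblast-like and mural-like cells, 1 in endothelium-like and 1 in follicle-like cells. Glia-like values rest on 38 and 108 cells.

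**Figure D3:**
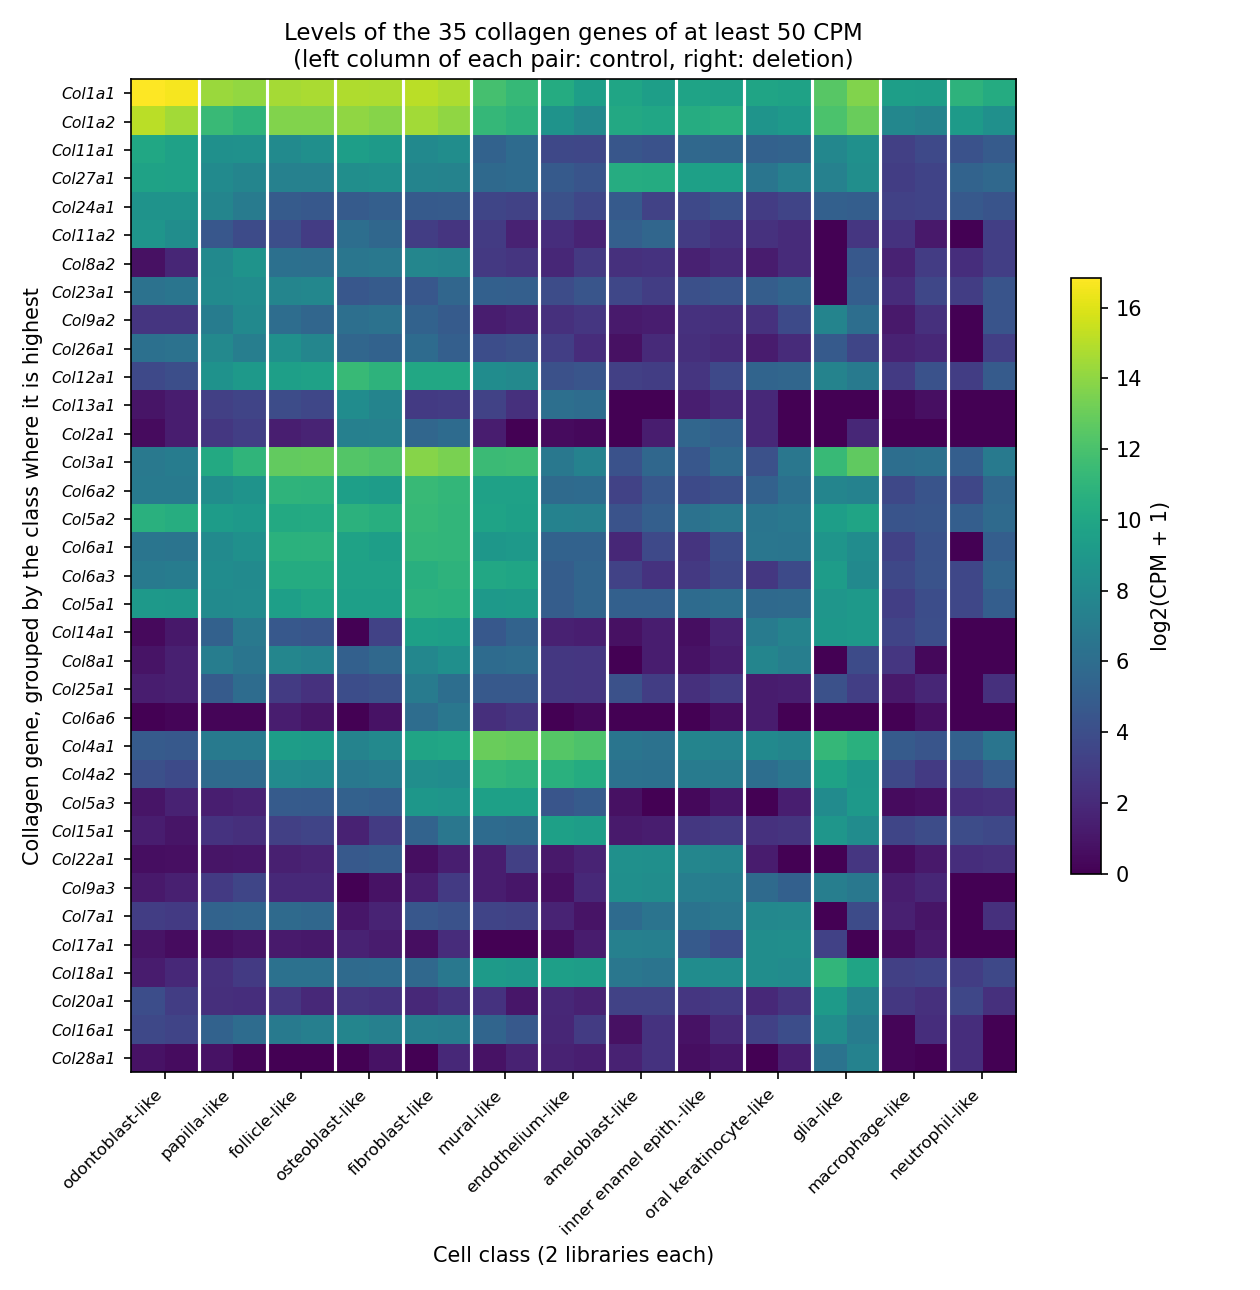
Levels of 35 collagen genes (rows) in each cell class (column pairs, control left and deletion right) as log2(CPM + 1). Rows are grouped by the main class where each gene is highest, with the epithelium counted as 1 class. The columns show the epithelium as its 3 named types, and Col27a1, grouped under odontoblast-like cells, is higher in ameloblast-like cells. Col1a1 is brightest in odontoblast-like cells, at 117652 and 100679 CPM, and Col4a1 in mural-like cells, at 8304 and 7448 CPM.

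Among the 12 main classes, odontoblast-like cells were highest for the fibrillar members Col1a1, Col1a2, Col11a1, Col11a2, Col24a1 and Col27a1. With the epithelium split, Col27a1 was higher in ameloblast-like cells, at 1359 and 1332 CPM against 829 and 785 CPM. The promoter-proximal sequence of the 4 minor fibrillar genes among these members is shown because they share this highest main class. That of Col3a1, a major fibrillar gene that stood lower in odontoblast-like than in other mesenchymal classes, is shown for contrast. Each is the 250 bases before the start site in RefSeq (build GRCm38.p6), 5′ to 3′ on the gene's strand, and none overlaps an exon annotated in GENCODE M21. Capitals mark the CCAAT box, the GC-box core GGGCGG and the TATAAA box on either strand, and overlapping matches were counted. The windows lie at chr3:114030290-114030539 (Col11a1, plus strand), chr17:34038888-34039137 (Col11a2, plus), chr3:145292222-145292471 (Col24a1, plus), chr4:63215162-63215411 (Col27a1, plus) and chr1:45311288-45311537 (Col3a1, plus). In GENCODE M21 the Col27a1 gene starts at 63214004, so its window lies inside the annotated gene, between exons. The Col11a2 gene starts there at 34039437, past the end of its window.
Col11a1: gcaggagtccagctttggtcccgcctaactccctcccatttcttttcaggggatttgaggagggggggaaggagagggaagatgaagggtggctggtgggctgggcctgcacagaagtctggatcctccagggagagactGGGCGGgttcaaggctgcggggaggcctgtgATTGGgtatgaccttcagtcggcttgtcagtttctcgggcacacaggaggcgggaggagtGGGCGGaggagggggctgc
Col11a2: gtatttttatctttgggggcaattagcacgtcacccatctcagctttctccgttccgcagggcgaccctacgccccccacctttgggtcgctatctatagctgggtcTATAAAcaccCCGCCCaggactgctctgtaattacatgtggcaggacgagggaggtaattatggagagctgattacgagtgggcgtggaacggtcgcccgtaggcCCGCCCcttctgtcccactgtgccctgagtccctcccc
Col24a1: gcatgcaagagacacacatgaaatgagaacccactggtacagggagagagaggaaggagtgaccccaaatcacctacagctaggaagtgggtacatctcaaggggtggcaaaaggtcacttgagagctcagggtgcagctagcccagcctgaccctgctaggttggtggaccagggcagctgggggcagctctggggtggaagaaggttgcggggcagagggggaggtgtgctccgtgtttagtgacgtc
Col27a1: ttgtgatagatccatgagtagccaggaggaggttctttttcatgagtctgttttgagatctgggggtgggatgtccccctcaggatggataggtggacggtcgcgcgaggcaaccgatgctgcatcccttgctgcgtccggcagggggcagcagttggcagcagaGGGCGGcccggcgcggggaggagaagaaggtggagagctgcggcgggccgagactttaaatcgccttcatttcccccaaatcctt
Col3a1: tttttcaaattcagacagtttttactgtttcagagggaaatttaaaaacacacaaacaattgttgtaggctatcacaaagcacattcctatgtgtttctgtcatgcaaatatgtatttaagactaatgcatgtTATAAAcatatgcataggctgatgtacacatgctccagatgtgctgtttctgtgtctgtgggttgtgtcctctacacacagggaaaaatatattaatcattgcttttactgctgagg
The GC-box core GGGCGG occurred 2 times in the Col11a1 and Col11a2 windows and 1 time in that of Col27a1, while Col24a1 and Col3a1 had none. TATAAA was found in the Col11a2 and Col3a1 windows, and CCAAT in that of Col11a1 alone. The Col3a1 window had 35.2% G and C, against 57.6% to 62.4% in the other 4. Of 32851 windows of all genes, 32.7% held GGGCGG, 33.8% CCAAT and 12.4% TATAAA. Of 38 windows found for 35 collagen genes, 22 held GGGCGG (57.9%), 13 CCAAT (34.2%) and 5 TATAAA (13.2%). These matches are descriptions of the letters in the windows.

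Col1a1, the main chain of dentin and bone collagen, stood at 117652 CPM in control and 100679 CPM in deletion odontoblast-like cells. Fibroblast-like cells were next, at 34723 and 28536 CPM. Col1a2, its partner chain, stood at 35313 and 23111 CPM in odontoblast-like cells, and its range met that of fibroblast-like cells, at 23380 and 17270 CPM. Both chains of the main fibril were thus lower in the deletion library in both of these classes, without passing the 2-fold rule used below. At sub-clustering resolution 1.0 the odontoblast-like levels were 93145 and 73229 CPM for Col1a1 and 26165 and 14770 CPM for Col1a2, the latter below the fibroblast-like level of the deletion library.

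The minor fibrillar chains set odontoblast-like cells apart from the papilla. Col11a1, which helps set fibril diameter, stood at 1027 and 793 CPM, above osteoblast-like cells at 691 and 587 CPM. At sub-clustering resolution 1.0 it stood at 819 and 574 CPM, a range that meets the osteoblast-like one. Col11a2 stood at 441 and 309 CPM, and the next class, osteoblast-like, held only 67.5 and 47.9 CPM. Col24a1, a fibrillar gene known from bone, stood at 393 and 404 CPM, above 206 and 129 CPM in papilla-like cells. Col27a1 stood at 829 and 785 CPM, ahead of epithelium-like cells at 624 and 562 CPM. Among papilla-like sub-clusters, the one led by Plac8, Fgf10 and Panx3 had the highest Col24a1, at 308 and 270 CPM, and Col27a1, at 355 and 368 CPM. It held 30.8 and 27.3 CPM of Col11a2, and its Col11a1, at 294 and 250 CPM, was the lowest of the 4.

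Col3a1, the fibrillar collagen of soft tissue, ran the other way. It was 110 and 131 CPM in odontoblast-like cells, 1204 and 2076 CPM in papilla-like cells, 7161 and 7495 CPM in follicle-like cells and 13920 and 11070 CPM in fibroblast-like cells. The type V chains that share fibrils with types I and III were also highest in fibroblast-like cells, Col5a1 at 1815 and 1620 CPM and Col5a2 at 2446 and 2195 CPM. Col5a2 stood at 1779 and 1502 CPM in osteoblast-like and 1680 and 1468 CPM in odontoblast-like cells, ranges that overlap. Col5a3 was highest in mural-like cells, at 769 and 767 CPM, with fibroblast-like cells at 491 and 441 CPM and glia-like cells at 276 and 544 CPM, and stood in odontoblast-like cells at 0.941 and 2.07 CPM.

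Col2a1, the cartilage collagen, was highest in osteoblast-like cells at 162 and 168 CPM, followed by fibroblast-like cells at 46 and 59.2 CPM. The cartilage markers Acan, Matn1, Matn3, Hapln1, Cnmd and Snorc stood between 0.0 and 12.5 CPM there, and Sox9 at 77.6 and 101 CPM. Inner enamel epithelium-like cells also held Col2a1, at 46.1 and 36.7 CPM, against 0.0 and 1.49 CPM in ameloblast-like cells.

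Fibril-associated members were spread over the classes. Col12a1, which decorates type I fibrils, led in osteoblast-like cells at 2595 and 1890 CPM, followed by fibroblast-like cells at 1118 and 1082 CPM, and stood at 12.2 and 15.7 CPM in odontoblast-like cells. Col14a1, a related chain, was highest in fibroblast-like cells at 748 and 707 CPM. Col9a2 was highest in papilla-like cells by the mean of the libraries, at 134 and 251 CPM, and the glia-like values of 190 and 66.0 CPM overlapped them. Col16a1 had its highest values in glia-like (310 and 132 CPM) and osteoblast-like cells (206 and 161 CPM), which overlapped. Col20a1 was highest in glia-like cells, at 569 and 203 CPM, with the next class, odontoblast-like, at 14.7 and 7.15 CPM.

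Type VI chains, the filament that links cells to the matrix around them, were highest in fibroblast-like cells. Col6a1 stood at 2324 and 2182 CPM, Col6a2 at 2624 and 2301 CPM and Col6a3 at 1600 and 1914 CPM. Follicle-like cells were next for all 3, at 1763 and 1786, 2006 and 1934, and 1335 and 1297 CPM. Odontoblast-like cells held 90.7 and 89.5, 124 and 114, and 115 and 132 CPM. Col6a6 was a fibroblast-like gene at 63.7 and 101 CPM, and no other class reached 10 CPM of it. Col6a4 and Col6a5, in the same cluster of genes on chromosome 9 (mm10), peaked elsewhere, Col6a4 in follicle-like cells at 13.2 and 11 CPM and Col6a5 in osteoblast-like cells at 22.2 and 33.1 CPM.

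Basement membrane genes marked the vessels. Col4a1 stood at 8304 and 7448 CPM in mural-like and at 5528 and 4537 CPM in endothelium-like cells, and Col4a2 at 2174 and 1901 CPM and at 1678 and 1301 CPM. Col15a1 was an endothelium-like gene at 750 and 663 CPM, with glia-like cells next at 465 and 298 CPM and 57.0 and 52.1 CPM in mural-like cells. Col18a1, whose C-terminal fragment is endostatin, was highest in glia-like cells at 2215 and 905 CPM. Endothelium-like cells held 722 and 658 CPM and mural-like cells 567 and 510 CPM of it. The rarer type IV chains were low: Col4a3 had 20 UMIs and Col4a4 had 63 UMIs over all kept cells. Col4a5 and Col4a6 were under 50 CPM in the main classes but stood out in oral keratinocyte-like cells, at 132 and 130 CPM and at 39.2 and 37.5 CPM, against 0.536 and 0.51 CPM of Col4a5 in inner enamel epithelium-like cells.

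The short-chain collagens of type VIII, which form hexagonal nets, differed between chains. Col8a2 was a papilla-like gene at 256 and 406 CPM, with fibroblast-like cells at 210 and 197 CPM. Col8a1 was highest in fibroblast-like cells at 225 and 331 CPM, followed by follicle-like cells at 213 and 176 CPM. Papilla-like cells held 366 and 155 CPM of Col8a1 at sub-clustering resolution 1.0, and 400 and 162 CPM with collagen genes allowed in the clustering. These control values lay above the fibroblast-like one, so the highest class of Col8a1 depends on the clustering. Among papilla-like sub-clusters, Col8a2 stood at 749 and 694 CPM in the one led by Gria1, Upp1 and Fst, 543 and 779 CPM in the one led by Gabrg3 and 525 and 585 CPM in the one led by Grik1. It was lowest in the one led by Plac8, at 62.8 and 40.7 CPM. Col10a1, the collagen of hypertrophic cartilage, had 54 UMIs in all.

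Transmembrane collagens divided the tissue. Col13a1, found at cell adhesion sites, was an osteoblast-like gene at 285 and 192 CPM, with endothelium-like cells next at 71.1 and 61.1 CPM. Col23a1 was highest in papilla-like cells at 261 and 297 CPM, with follicle-like cells at 203 and 217 CPM. Col25a1 was highest in fibroblast-like cells at 125 and 68.4 CPM, and papilla-like cells held 28.1 and 62.0 CPM. At sub-clustering resolution 1.0 papilla-like cells held 65.8 and 103 CPM of it, a range that meets the fibroblast-like one. Col17a1, the hemidesmosome collagen, was epithelial, at 83.8 and 81.0 CPM, with 8.62 and 0.0 CPM in glia-like cells, the next class. Of the 2 members outside these groups, Col26a1 was highest in follicle-like cells at 346 and 215 CPM, a range that met papilla-like cells at 242 and 146 CPM, and Col28a1, known from peripheral nerve, was a glia-like gene at 86.2 and 179 CPM.

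The 9 members under 50 CPM in the main classes were Col4a3, Col4a4, Col4a5, Col4a6, Col6a4, Col6a5, Col9a1, Col10a1 and Col19a1, with 20 to 1427 UMIs each over all kept cells. Col19a1 was concentrated in the papilla-like sub-clusters led by Grik1 (55.9 and 37.6 CPM) and Gria1 (38.1 and 46.3 CPM), and stood at 0.392 and 0.955 CPM in the one led by Plac8.

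Epithelial types carried their own collagens. Col7a1, the anchoring fibril gene, was highest in epithelium-like cells at 93.3 and 94.9 CPM and reached 235 and 243 CPM in oral keratinocyte-like cells. Col17a1 was 302 and 321 CPM in oral keratinocyte-like, 160 and 152 CPM in ameloblast-like and 26.6 and 14.8 CPM in inner enamel epithelium-like cells. Col22a1, a collagen of tissue junctions, had 1 UMI in control and 0 UMIs in deletion oral keratinocyte-like cells, which allows up to 7.80 and 6.02 CPM. It stood at 353 and 331 CPM in ameloblast-like and 211 and 189 CPM in inner enamel epithelium-like cells. Col9a3, which was highest in epithelium-like cells on the mean of the libraries (141 and 114 CPM) but overlapped glia-like cells (147 and 106 CPM), had the same order, at 329 and 302, 148 and 137, and 56.0 and 34.2 CPM in ameloblast-like, inner enamel epithelium-like and oral keratinocyte-like cells.

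Col27a1, a fibrillar member, had more UMIs than any other collagen gene in ameloblast-like cells of both libraries. It stood at 1359 and 1332 CPM there, above Col1a2 at 1140 and 1015 CPM, and at 746 and 727 CPM in inner enamel epithelium-like cells, against 91.0 and 161 CPM in oral keratinocyte-like and 7.15 and 9.45 CPM in macrophage-like cells. With each cell thinned to 1900 UMIs, a Col27a1 UMI was found in 86.2% and 88.9% of ameloblast-like cells and in 1.13% and 1.43% of macrophage-like cells. Without thinning the shares were 93.3% and 93.6%, and 4.78% and 4.74%, at medians of 4006 and 3057 UMIs and of 8703 and 5944 UMIs. The ameloblast-like level was above that of odontoblast-like cells, 829 and 785 CPM, in both libraries.

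The 2 type I chains took unequal parts in the classes. Col1a1 UMIs outnumbered Col1a2 UMIs 3.33 and 4.36 times in odontoblast-like cells and 7.51 and 8.88 times in papilla-like cells. The papilla-like value rests on the sub-cluster led by Plac8, at 9.86 and 13.1, and the other 3 ran from 2.44 to 6.64. With sub-clustering at resolution 1.0 the papilla-like ratio was 3.61 and 5.55. In follicle-like cells the ratio was 1.94 and 2.08, in osteoblast-like cells 1.73 and 1.95 and in fibroblast-like cells 1.49 and 1.65. In 2 epithelial types Col1a2 UMIs outnumbered those of Col1a1: the ratio was 0.842 and 0.691 in ameloblast-like cells and 0.624 and 0.498 in inner enamel epithelium-like cells. There Col1a2 stood at 1379 and 1567 CPM and Col1a1 at 860 and 780 CPM. The inner enamel epithelium-like value pools unlike sub-clusters. The one led by Aldh1a7, Aldh1a1 and Ecel1 had a ratio of 0.496 and 0.404, with Col1a2 at 2188 and 2407 CPM. The cycling one had 0.872 and 1.06, and the one led by Wnt10b, Megf11 and Ltb had 3.07 and 3.42, with Col1a2 at 257 and 171 CPM. The low ratio thus rests on the first of these. Unnamed epithelial sub-clusters of over 20 cells had ratios above 1, such as 3.58 and 4.6 in the one led by Odam and 1.71 and 1.46 in the one led by Txnrd2. In macrophage-like cells the ratio was 3.10 and 3.61, with Col1a2 at 220 and 187 CPM and Col1a1 at 682 and 675 CPM. Thinned to 1900 UMIs, 62.1% and 59.5% of inner enamel epithelium-like cells and 19.8% and 17.7% of macrophage-like cells had a Col1a2 UMI, while for Col1a1 the shares were 65.1% and 63.5% against 47.8% and 48.9%. Before thinning, the Col1a2 shares were 76.9% and 70.5% against 49.2% and 41.2%, and the Col1a1 shares 85.8% and 78.9% against 86.4% and 79.7%, at medians of 4080 and 2958 UMIs in the epithelial type. In endothelium-like cells the ratio was 3.35 and 2.77, and in neutrophil-like cells, where Col1a1 stood higher, it was 3.31 and 3.76.

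**Figure D4:**
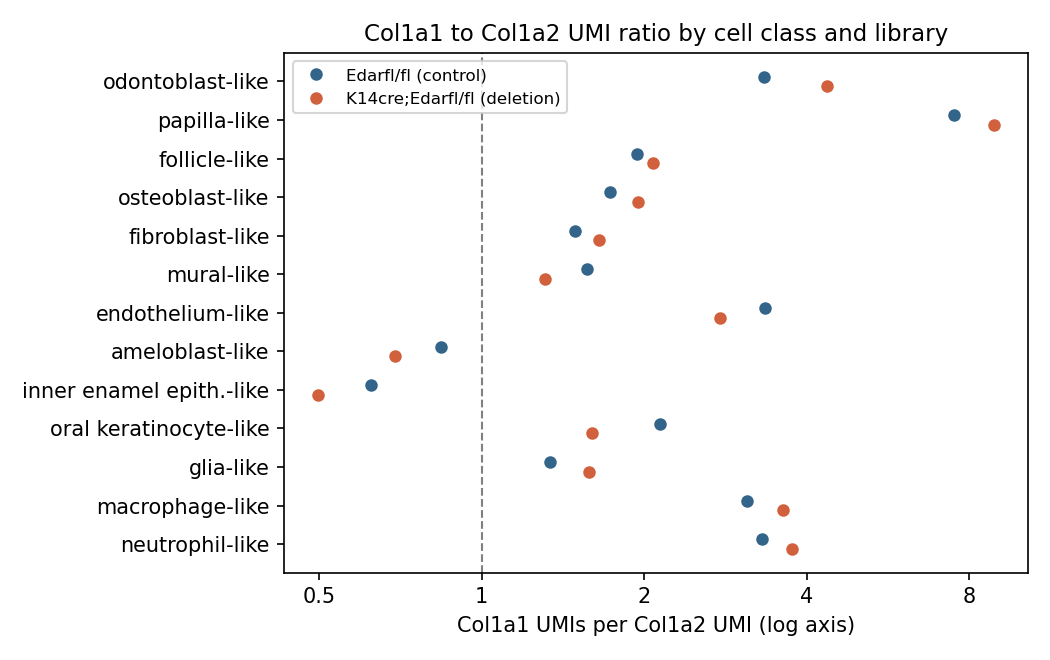
Col1a1 UMIs per Col1a2 UMI (horizontal log axis) in each class of the control (blue) and deletion (orange) library, with the dashed line at equal counts. Ameloblast-like and inner enamel epithelium-like cells lie below 1, at 0.842 and 0.691 and at 0.624 and 0.498, the second as a pool of sub-clusters from 0.496 and 0.404 to 3.07 and 3.42. Papilla-like cells lie highest, at 7.51 and 8.88, which falls to 3.61 and 5.55 under the finer sub-clustering.

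Chains of 1 type tracked each other over the 12 named classes to different degrees. These correlations are over log2(CPM + 5), describe classes that share a library and its depth, and have no test. Col4a1 and Col4a2, which lie head to head on chromosome 8 with start sites 21 bases apart (mm10), had r = 0.99 in both libraries. The other head-to-head pairs had lower values. Col4a3 and Col4a4 (72 bases apart) had 0.07 and -0.07, from 20 and 63 UMIs over all kept cells. Counts so near 0 in every class cannot show whether that pair tracks. Col4a5 and Col4a6 (1309 bases), under 50 CPM in the main classes, had 0.46 and 0.79. The type VI pairs ran from 0.97 to 0.99, Col5a1 and Col5a2 had 0.96 and 0.98, and Col1a1 and Col1a2 had 0.96 and 0.95. Col11a1 and Col11a2 had 0.72 and 0.66, and Col8a1 and Col8a2 had 0.88 and 0.78. Col9a2 and Col9a3 had only 0.30 and 0.21. Col9a2 UMIs were 21.6 and 23.3 times those of Col9a3 in papilla-like cells and 0.0252 and 0.0462 times in epithelium-like cells.

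The other genes of the collagen route comprised 48 names for helix hydroxylation, chaperones and export, propeptide removal, cross-linking and receptors, and 21 of them were highest in odontoblast-like cells. These included 8 of 12 hydroxylation and 8 of 13 chaperone and export genes, but 1 of 5 cross-linking genes, Loxl4. Loxl4 (24.3 and 20.8 CPM) and Adamts14 (52.1 and 37.7 CPM), also among the 21, did not reach 50 CPM in both libraries. The share of all genes that were highest in odontoblast-like cells was not computed, so these counts describe the list only. Plod2, which hydroxylates telopeptide lysines, stood at 1637 and 1405 CPM and P4hb, a subunit of prolyl 4-hydroxylase, at 1579 and 1574 CPM in odontoblast-like cells. Serpinh1, the collagen chaperone HSP47, stood at 4273 and 4202 CPM in odontoblast-like cells, and the general chaperone Hspa5 was highest in macrophage-like cells, at 1523 and 2116 CPM. Pcolce, which enhances removal of the C-terminal propeptide, stood at 1206 and 1010 CPM in odontoblast-like cells, and the protease Bmp1 at 399 and 417 CPM in osteoblast-like cells. The cross-linking oxidases Lox (1342 and 1172 CPM) and Loxl2 (779 and 717 CPM) peaked in fibroblast-like cells. The integrin chains Itgb1 (1526 and 1713 CPM) and Itga1 (1219 and 1104 CPM) peaked in mural-like cells.

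The second question was how the collagen genes differed between the libraries. A gene was called higher or lower where it had at least 50 CPM in 1 library, where CPM + 5 differed at least 2-fold and where the interval of the count ratio excluded 1. In mesenchyme-like cells as a whole, 22 members were testable, 0 were called higher and 1 lower, where 0.26% and 0.231% of all testable genes were called higher and lower. The median log2 ratio of the members, deletion over control, was 0.32, and that of all 3464 testable genes 0.08. The members' median was -0.09 with sub-clusters weighted equally, 0.10 without odontoblast-like cells and 0.04 in cells with Xist only.

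The gene lower in mesenchyme-like cells was Col11a2, at 158 and 53.5 CPM (log2 ratio -1.47; 7566 and 2313 UMIs). Odontoblast-like cells, where it is highest, were 1827 of the 8479 control and 952 of the 10993 deletion mesenchyme-like cells. Without odontoblast-like cells the log2 ratio was -0.54 (16.7 and 10.0 CPM), and with each sub-cluster weighted equally it was -0.50, and neither was called. Within odontoblast-like cells the levels were 441 and 309 CPM. The collagen share of all mesenchyme-like UMIs was 7.73% and 5.06%. With 1 library per group, genotype and dissociation cannot be told apart as sources of the difference in cell numbers.

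Within odontoblast-like cells, 14 members were testable and none was called, where the background was 0.0745% higher and 0.0372% lower. Log2 ratios of the members ran from -0.61 to 0.24. In follicle-like cells none of 21 members was called (background 0.289% higher and 0.0% lower) and log2 ratios ran from -0.67 to 0.34. In osteoblast-like cells none of 21 was called (0.119% and 0.089%), in mural-like cells none of 17 (0.472% and 0.0555%) and in endothelium-like cells none of 10 (0.211% and 0.0604%).

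Some of these counts changed with the cells used. Among cells with Y-linked UMIs only, Col1a1 (1666 and 592 CPM) and Col1a2 (506 and 207 CPM) were called lower in endothelium-like cells. These levels did not lie above those of all neutrophil-like cells, at 1932 and 1305 CPM and at 583 and 347 CPM. In osteoblast-like cells of the same sex Col2a1 (310 and 76.7 CPM) and Col11a2 (151 and 40.2 CPM) were called lower and Col23a1 (17.7 and 58.4 CPM) higher. Among cells with Xist only, Col2a1 was called higher in osteoblast-like cells, at 119 and 264 CPM. With cells of at least 1000 genes and at most 10% mitochondrial UMIs, Col8a1 was called higher in osteoblast-like cells (36.3 and 78.4 CPM) and Col14a1 in mural-like cells (20.3 and 50.2 CPM). The share of all genes called in these sets of cells is not given, so these calls have no background beside them.

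In papilla-like cells 2 of 22 testable members were called higher and 0 lower, where 0.557% of all testable genes were called higher and 0.0279% lower. Col14a1 stood at 35.8 and 112 CPM (log2 ratio 1.52) and Col25a1 at 28.1 and 62.0 CPM (1.02). The papilla-like sub-cluster led by Grik1 and Kirrel3 made up 542 of the 2582 control and 1477 of the 3617 deletion cells. In that sub-cluster Col14a1 was 117 and 247 CPM and Col25a1, which was highest there, 132 and 150 CPM. In the sub-cluster led by Gabrg3 and Pappa, Col14a1 was 34.2 and 74.8 CPM, and in the one led by Gria1 it was 135 and 105 CPM. With all 4 papilla-like sub-clusters weighted equally, the log2 ratios were 0.54 and 0.10 and neither gene was called, while Col8a1 was called lower, at -1.05 (272 and 129 CPM). The same change of calls came with sub-clustering at resolution 1.0, where the class held 1190 control and 2359 deletion cells. There Col14a1 was 95 and 190 CPM, Col25a1 65.8 and 103 CPM and Col8a1 366 and 155 CPM.

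The papilla-like differences were not alike in cells of the 2 sexes, and this was not tested. Among cells with Y-linked UMIs and no Xist, Col14a1 was 28.7 and 133 CPM (log2 ratio 2.04) and Col25a1 21.8 and 82.2 CPM (1.70). Among cells with Xist and no Y-linked UMI, Col14a1 was 47.9 and 59.8 CPM (0.29) and Col25a1 37.9 and 20.3 CPM (-0.76). Col9a2, not called over all papilla-like cells, was 98.8 and 340 CPM in the first set and 203 and 76.2 CPM in the second. In all, 5 members were called higher and 2 lower in the first set, and 0 and 2 in the second. Those of the first set included Col3a1 (1090 and 2491 CPM), Col8a2 (230 and 503 CPM), Col24a1 (227 and 90.7 CPM) and Col26a1 (246 and 107 CPM). The share of all genes called in these sets is not given. Cells of the 2 sexes come from different animals, so animal and sex cannot be told apart.

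In fibroblast-like cells 1 of 24 members was called higher and 0 lower, where 0.409% of testable genes were called higher and 0.497% lower. Col15a1 stood at 39.8 and 103 CPM there (log2 ratio 1.28), from 70 and 180 UMIs. The call was lost in cells with Xist only, where the log2 ratio was 1.33. The 6 erythroid markers summed to 812 and 35.6 CPM in fibroblast-like cells, and their part in the difference was not tested. Col18a1 was also called higher with a pseudocount of 1 CPM (50.6 and 105 CPM) and with the stricter cell filter (50.9 and 118 CPM). It was called with collagen genes in the clustering too (47.1 and 115 CPM). Col25a1 was called lower with the stricter filter (125 and 53.2 CPM). Col11a1 was called higher in cells with Y-linked UMIs only, and Col16a1 in cells with Xist only. These calls have no background beside them.

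In epithelium-like cells, the type in which the Cre is active, 1 of 13 testable members was called higher and 0 lower, where 0.169% and 0.0846% of testable genes were called. Col3a1 stood at 41.2 and 111 CPM (log2 ratio 1.33). It missed the 2-fold rule in cells of at least 1000 genes and at most 10% mitochondrial UMIs (0.97) and with epithelial sub-clusters weighted equally (0.87). It stood at 32.4 and 122 CPM in neutrophil-like and 66.2 and 74.7 CPM in macrophage-like cells. A Col3a1 UMI was found in 11% and 20.3% of macrophage-like cells, with medians of 8703 and 5944 UMIs, and in 8.54% and 16.0% of epithelium-like cells, with medians of 3989 and 3006 UMIs. Thinned to 1900 UMIs, these shares were 3.95% and 9.16%, and 4.52% and 10.5%. The part of RNA from other cells in the epithelial level was not tested. The epithelial sub-cluster led by Bglap, Plac8 and Col3a1, with 35 and 53 cells, held 759 and 1302 CPM. Without the epithelial sub-clusters led by genes of other names, Col3a1 was 22.6 and 62.3 CPM (1.29). The 8 mesenchymal markers summed to 75.1 and 96.6 CPM in epithelium-like cells, where 0 of the control and 1 of the deletion values were 0.

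Among the named epithelial types, Col3a1 was called higher in inner enamel epithelium-like cells (22.3 and 56.6 CPM, 83 and 111 UMIs), as 1 of 13 members, where 0.221% of testable genes were called higher and 0.138% lower. It was also called in oral keratinocyte-like cells (16.8 and 101 CPM, 12 and 62 UMIs), as 1 of 17 members, where 0.477% were called higher and 1.4% lower. Col3a1 stood at 32.4 and 122 CPM in neutrophil-like and 66.2 and 74.7 CPM in macrophage-like cells. The inner enamel epithelium-like values lay below both in each library. The oral keratinocyte-like values lay below both in the control and between them in the deletion library. The part of RNA from other cells was not tested here either. In ameloblast-like cells 0 of 10 members were called (0.249% and 0.222%).

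Of the collagens of the epithelium, those below were not called between the libraries. Col17a1 was 83.8 and 81.0 CPM, Col7a1 93.3 and 94.9 CPM, Col22a1 183 and 153 CPM, Col9a3 141 and 114 CPM and Col27a1 624 and 562 CPM in epithelium-like cells. Of the 48 genes of the collagen route, 18 were testable in epithelium-like and 31 in mesenchyme-like cells, and 0 were called in either direction in either class.

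**Figure D5:**
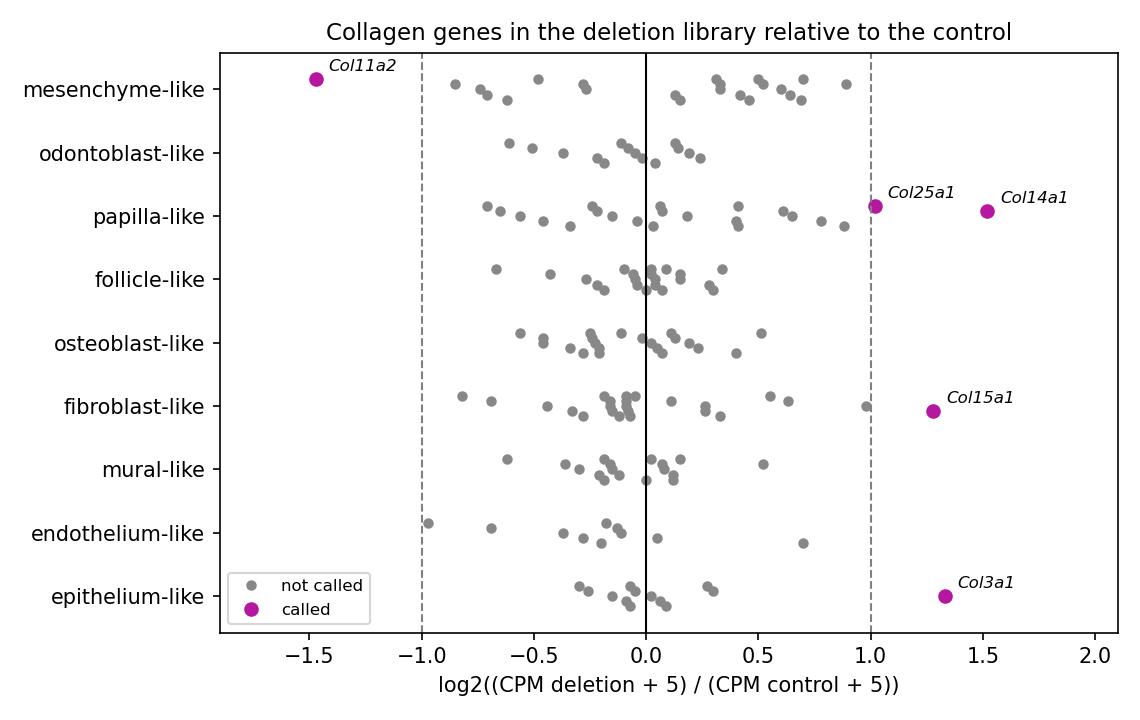
Log2 ratio of CPM + 5, deletion over control (horizontal axis), of each testable collagen gene (points) in each class, with called genes in magenta and dashed lines at 2-fold. Across the 9 classes shown, the 5 called points are Col11a2 in mesenchyme-like, Col14a1 and Col25a1 in papilla-like, Col15a1 in fibroblast-like and Col3a1 in epithelium-like cells.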

How the data were processed

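Single-cell RNA was measured in 1 control and 1 deletion library. The authors deposited whole-number UMI counts per gene and barcode, with no normalization, and per the submitters' processing notes used STARsolo and mm10. Neither a STARsolo version nor an annotation is given in the sources used here. The libraries held 73375441 and 62158879 UMIs in 13990 and 16029 barcodes, the smallest of 500 UMIs.

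Cells with at least 500 genes and at most 20% mitochondrial UMIs were kept, and Scrublet doublets (176 and 243) removed. Counts were scaled to 10000 per cell, log-transformed, and clustered with scanpy 1.11.5 (2000 variable genes without collagen genes, 30 components, 15 neighbours, Leiden resolution 1.0, then 0.6 within mesenchyme-like and epithelium-like cells), with both libraries together and no integration. Names needed at least 3 markers of a list, each seen in 25% of the cluster's cells, and the best mean score; scores closer than 0.1 were settled by the 10 leading genes. Clusters led by markers of another list stayed unnamed. This naming rule was set with the data in view, and rebuilt names may differ from the study's.

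UMIs were summed per class and library and scaled to CPM, with a pseudocount of 5 CPM in log2 ratios. With 1 library per group there is no test and no p-value. Levels carry exact Poisson, shares exact Clopper-Pearson and ratios conditional binomial intervals. The call rule was tested on simulated data. Members are all matches of the name pattern. Their groups, the marker lists and the 48 collagen route genes were chosen with earlier results of these data known. Values in both libraries are given for members of at least 50 CPM in a main class in both libraries, for partner chains, for called members and for the 2 most abundant genes of each role; values of other members, sub-clusters and epithelial types were chosen after they were seen. Gene positions are from GENCODE M21 and promoter windows from RefSeq. Alternatives covered the pseudocount, the minimum level, cell filters, thinning, denominators, weights, doublets, clustering and sex.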

Additional observations from a re-analysis of the deposited data

Results flagged for a closer look

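Col25a1 in papilla-like cells moved in opposite directions in cells of the 2 sexes. The log2 ratio, deletion over control, was 1.70 in cells with Y-linked UMIs only (971 control and 1157 deletion cells) and -0.76 in cells with Xist only (676 and 926 cells). In the cells with Xist only the levels were 37.9 and 20.3 CPM, under the minimum of 50 CPM, so that change could not be called. The difference between the sexes was not tested, since each sex is present in 1 library per group.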

How the results depend on the processing

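No paired analysis was possible because each group is 1 library. Among mesenchyme-like cells, the count of collagen genes called higher, 0, became 2 (Col8a2 and Col9a2) in cells with Y-linked UMIs only and 1 (Col14a1) in cells with Xist only. The count called lower, 1, became 2 (Col1a2 with Col11a2) in cells with Y-linked UMIs only, and 0 with equal sub-cluster weights and without odontoblast-like cells. The 1 gene higher in epithelium-like cells became 0 with a stricter cell filter (at least 1000 genes and at most 10% mitochondrial UMIs; Col3a1 at 0.97) and with equal sub-cluster weights (0.87). The share of all genes called is given for the main setting only, so counts under the alternatives have no background beside them. The collagen share of mesenchyme-like UMIs became 6.60% and 4.72% in cells thinned to 1900 UMIs, 7.59% and 4.99% under the stricter filter and 6.49% and 4.68% as a mean over cells. In odontoblast-like cells it became 16.6% and 13.8% when thinned and as a mean over cells, 14.6% and 11.3% with collagen genes allowed in the clustering, 12.5% and 9.26% at sub-cluster resolution 1.0, and 12.8% in the deletion library under the stricter filter. In epithelium-like cells it became 0.431% in the control under the stricter filter and 0.425% in the deletion library with collagen genes in the clustering. The order of odontoblast-like above mesenchyme-like above epithelium-like cells held under each of these.

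The 5 called differences were recomputed 54 times, of which 40 kept the call, 36 moved by no more than counting error and 1 reversed, Col25a1 in papilla-like cells with Xist only (-0.76). With collagen genes in the clustering, Col14a1 (0.86) and Col25a1 (0.64) lost their calls in papilla-like cells, as they did at sub-cluster resolution 1.0 (0.96 and 0.61), and Col8a1 was called lower (-1.28 and -1.21), as it was with Xist only (-1.03). Control Col14a1 stood at 108 and 95 CPM in the cells so regrouped, against 35.8 CPM. Leaving out odontoblast-like cells, leaving out epithelial sub-clusters led by genes of other names weighting papilla-like sub-clusters equally and the collagen shares at sub-cluster resolution 1.0 were chosen after seeing the data. With no second library per group, variation between animals and dissociations is not measured.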
